A study of Homo sapiens with 8 samples.

Results

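SNAI1, PRRX1, S100A4, LEF1 and HES1 were examined as genes linked to epithelial-mesenchymal transition (EMT), the program by which cells loosen their contacts and gain motility. They were found by symbol in a table of transcript clusters that the authors deposited, in which a cluster gathers the probe sets of 1 transcribed locus, and they are 5 of its 305 named genes. That table lists only clusters that differ by at least 2-fold between the groups headed 5d and NS, so the genes were chosen on this contrast and their differences are given as a description without a test. The arrays, Affymetrix Human Transcriptome Arrays, held RNA of A375, a human melanoma cell line, carrying a lentiviral shRNA. It targets PLK1 in 4 arrays (shPLK1) and is a nonsense control in the other 4 (shNS). Both shRNAs are switched on by doxycycline, which both lines received for 48 h. The labels hold 4 biological replicates per group whereas the design text names triplicates, and none of the 8 arrays was left out. For the cells on the arrays the Methods cite an earlier study. The polyclonal pools selected with puromycin that they describe belong to another section, so whether the array cells were pools is not stated. The Methods name replicates of each cell line, so each group represents 1 line and the replicates measure the spread between samples of that line. Several shPLK1 plasmids are listed in the labels, without the one that these cells carry.

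The heading NS was read as shNS and the heading 5d, which no source used here defines, as shPLK1. Of the 27 clusters in that table with chromosome 18 IDs, 24 were higher in 5d, and among exon probe sets of the arrays 14.7% of those with chromosome 18 IDs were called higher in shPLK1 by limma, against 1.99% of all 573909. PLK1 is not among the listed clusters, so the knockdown was not checked here. The values by array belong to exon and junction probe sets, which were not paired with genes here. The values of the 5 genes are therefore the authors' group averages, for which neither the values of single arrays nor a spread can be given. In RNA from whole cultures, fewer cells that express a gene and less RNA per cell cannot be told apart. Of 8 melanoma and melanocyte markers, which include MITF, none is listed, so the identity of the line was not checked by its markers. Fibroblast (8 genes) and keratinocyte (6 genes) markers are likewise not listed, and of 6 leukocyte markers only LYZ, the gene of lysozyme, is, at 7.66 in NS and 6.60 in 5d. PTPRC, the defining marker of leukocytes, is not in it. The part of any other cell type in the results was not tested.

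When a ligand binds a NOTCH receptor, the receptor is cleaved and its intracellular domain (NICD) enters the nucleus, where it joins the DNA-binding protein RBPJ and activates target genes. HES1 is a classical target and encodes a repressor of the basic helix-loop-helix class. NUMB opposes NOTCH, and the model that the paper proposes places PLK1 upstream of NUMB and NOTCH, with NICD raising SNAI1. In the paper NICD protein fell after PLK1 knockdown, but overexpressed or mutated NUMB left NICD without a significant change. SNAI1 encodes SNAIL, a zinc finger repressor that binds E-boxes in the promoter of CDH1, the gene of E-cadherin. PRRX1 is a homeobox factor of mesenchymal tissues that also induces EMT. LEF1 carries the transcriptional response to Wnt signals together with β-catenin, and S100A4 is a calcium-binding protein that interacts with non-muscle myosin and promotes motility. Melanocytes descend from the neural crest, a tissue that itself undergoes EMT in the embryo.

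The promoters of the genes were read for the sites of these factors, since HES1 is a known NOTCH target and SNAIL, LEF1, HES1 and PRRX1 bind DNA themselves. RefSeq promoter sequences (GRCh38.p14) matched 4 of the 5 genes, which were PRRX1, S100A4, LEF1 and HES1, and the 250 bases before the start of transcription were searched on both strands. The HES1 window (chr3:194135898-194136147, plus strand) is shown because it holds sites for the NOTCH partner RBPJ and for HES1 itself. Its capitals mark TGGGAA, the core of the RBPJ site, and the N-box CACNAG, which HES proteins bind.
HES1: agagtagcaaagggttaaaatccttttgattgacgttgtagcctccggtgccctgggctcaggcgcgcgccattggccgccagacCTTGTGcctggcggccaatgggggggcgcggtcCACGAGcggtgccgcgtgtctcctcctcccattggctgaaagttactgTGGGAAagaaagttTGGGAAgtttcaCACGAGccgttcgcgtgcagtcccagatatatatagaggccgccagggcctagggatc
The S100A4 window (chr1:153545807-153546056, minus strand) holds the E-box CACCTG, the form bound by SNAIL, and its last bases overlap a TGGGAA, so the capitals mark both as 1 run.
S100A4: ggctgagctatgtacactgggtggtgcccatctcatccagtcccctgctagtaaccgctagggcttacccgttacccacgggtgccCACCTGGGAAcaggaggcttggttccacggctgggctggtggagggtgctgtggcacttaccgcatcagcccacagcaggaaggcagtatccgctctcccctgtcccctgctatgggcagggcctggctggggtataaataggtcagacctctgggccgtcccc
The LEF1 window (chr4:108166302-108166551, minus strand) has TGGGAA in capitals.
LEF1: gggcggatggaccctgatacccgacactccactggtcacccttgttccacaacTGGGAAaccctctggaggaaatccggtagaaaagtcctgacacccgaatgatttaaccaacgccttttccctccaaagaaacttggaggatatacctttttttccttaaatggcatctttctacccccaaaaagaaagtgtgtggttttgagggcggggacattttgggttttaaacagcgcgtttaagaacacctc
HES1 held 2 copies of TGGGAA, 84 to 79 and 70 to 65 bases before the start, and the first was also the only GTGGGAA, the longer RBPJ site, among the 4 promoters. TGGGAA or its reverse complement was present in 3 of the 4 promoters and in 20.8% of the 35116 RefSeq promoters over the same length, and GTGGGAA in 5.43%. The CACCTG of S100A4 lay 164 to 159 bases before the start, and 17.5% of all promoters held this E-box. The N-box was found 3 times in HES1 and once each in PRRX1 and S100A4, as CTGGTG on the reverse strand, and it is common, with 32% of all promoters. PRRX1 (chr1:170663881-170664130, plus strand) held none of the RBPJ or SNAIL letters. The TCF and LEF site CTTTGAT (2.26% of all promoters) and the homeobox core TAATTA (4.35%) were not found in these 4 windows. TATAAA was found in S100A4, 31 to 26 bases before the start, and in 10.7% of all promoters. A match describes letters and not binding, which the arrays do not measure.

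All 5 genes were lower in 5d than in NS, where 62.3% of the 491 clusters of the authors' deposited table were lower, so a lower value is the more common direction there. The differences ran from -1.65 for PRRX1 to -1.10 for HES1, with a median of -1.14, while the median of all 306 lower clusters was -1.47. Each gene had 1 cluster.

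**Figure D1:**
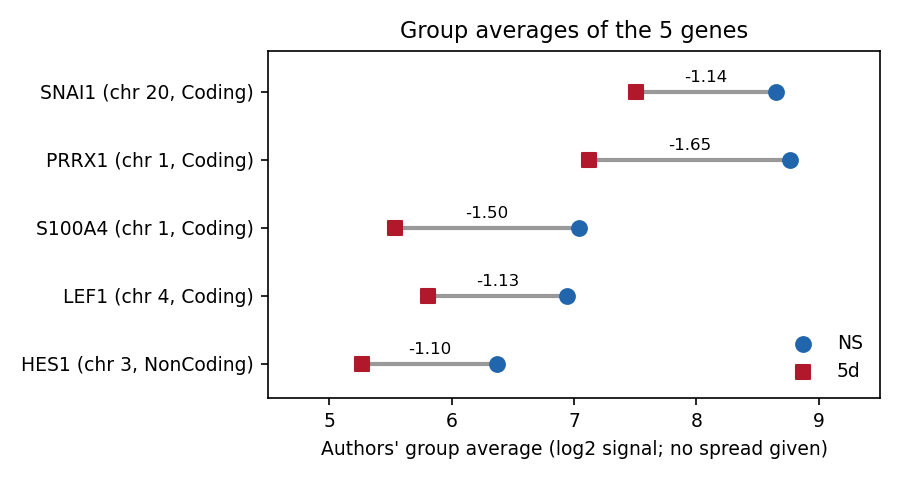
Group averages of the 5 genes on the log2 scale of the authors' deposited table, with NS as circles, 5d as squares and the difference (5d minus NS) above each line. All squares lie left of their circles, with the largest difference (-1.65) for PRRX1, and no error bars are drawn because only averages are given by gene.

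Among the factors that act at the head of EMT, SNAI1 had an average of 8.65 in NS and 7.51 in 5d (log2), a difference of -1.14. This is a 2.20-fold lower signal, or 45.4% of the NS signal left. PRRX1 had 8.77 in NS and 7.12 in 5d, a difference of -1.65 and the largest of the 5, with 31.9% of the NS signal left. In the order of decreases PRRX1 was 118th of the 306 lower clusters and SNAI1 235th, so 234 clusters had a larger decrease than SNAI1. Both clusters are classed as coding.

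HES1, the NOTCH target, had 6.37 in NS and 5.27 in 5d, a difference of -1.10 and a 2.14-fold lower signal. This value belongs to a cluster classed as noncoding, TC03002732.hg.1, and no coding cluster of HES1 is in the authors' deposited table. It was also the gene nearest the limit of the table, with 46 lower clusters closer to it. LEF1, the Wnt effector, had 6.94 in NS and 5.81 in 5d, a difference of -1.13, which differs from that of SNAI1 by 0.01, the step to which the averages are rounded. SNAI1, LEF1 and HES1 thus had similar shares of the NS signal left, at 45.4%, 45.7% and 46.7%. S100A4, the motility protein, had 7.04 in NS and 5.54 in 5d, a difference of -1.50, with 35.4% left, and 140 clusters had a larger decrease. The 5 genes therefore fall into a pair with larger differences, PRRX1 and S100A4, and 3 genes within 0.04 of each other, although whether these differ beyond the spread of arrays could not be tested.

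**Figure D2:**
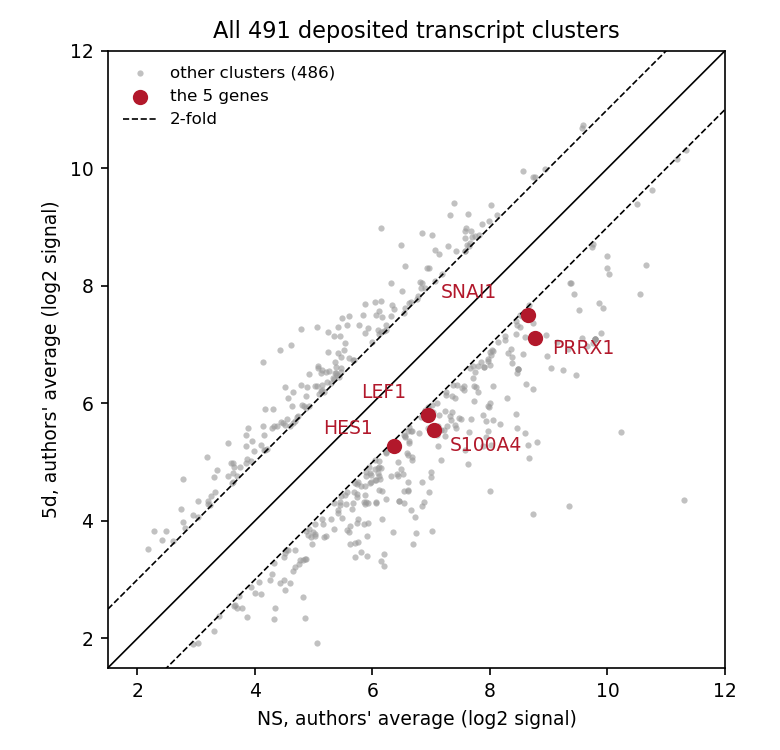
Authors' averages of all 491 transcript clusters, NS on the x axis and 5d on the y axis (log2 signal), with equality as a solid line and 2-fold as dashed lines. The 5 genes (large points) lie below the lower dashed line, HES1 (-1.10) nearest to it, and 117 clusters have a larger decrease than PRRX1, the gene with the largest of the 5.

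The relatives of these genes were counted in the same table, in which 231 of 20056 RefSeq protein-coding genes (1.15%) have a cluster, whether or not the array covers them. At that share few genes of a short list would be listed, so the counts are a description of which relatives are there. Of 16 EMT transcription factors, among them SNAI2, ZEB1, ZEB2, TWIST1 and PRRX2, SNAI1 and PRRX1 are the 2 with a cluster in the authors' deposited table. That list is not complete either. Of transcription factors outside it, picked after their values were seen, SOX4 was lower in 5d (-2.14 and -1.11) and SOX9 higher (1.24). S100A4 is the only 1 of 24 mesenchymal effectors, which include CDH2 (N-cadherin), VIM (vimentin) and FN1 (fibronectin), and the only 1 of 18 S100 genes. HES1 is the only 1 of 15 HES and HEY factors and other NOTCH targets, among them HEY1, NRARP and MYC. For NOTCH receptors, ligands and processing enzymes, none of 25 genes is listed, nor any of 20 epithelial genes, CDH1 included. The epithelial list is not complete. Outside it, and picked after their values were seen, PKP2 (1.54) and KRT80 (1.42) were higher in 5d and CEACAM1 (-1.08) was lower. LEF1 is the only 1 of 31 Wnt, TCF and LEF genes, so TCF7, AXIN2 and CTNNB1 are absent. A gene may be absent because it differed by less than 2-fold, because it missed the authors' limits or because it has no cluster on the array, so absence is not a measured lack of change. By immunoblot, a measure of protein and not of RNA, the paper reports lower N-cadherin, vimentin, SNAIL and ZEB1 after PLK1 knockdown in lines that include A375. From its array data the paper itself reports SNAIL as downregulated, and it proposes NOTCH signaling upstream as the likely reason. By immunofluorescence it reports higher E-cadherin in SK-MEL-2 cells.

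The signals of TGF-β induce SNAI1 in many epithelia. Of a list of 19 TGF-β and BMP genes, 2 have a cluster in the authors' deposited table and both were higher in 5d. SMAD3, which carries TGF-β signals to the nucleus, had 8.73 in NS and 9.85 in 5d, a difference of 1.12. TGFBR2, the type II receptor of TGF-β, had 7.58 in NS and 8.60 in 5d, a difference of 1.02. Both clusters are classed as noncoding, as is that of HES1. Outside the list, and picked after their values were seen, 2 other genes of the pathway were lower in 5d. INHBA, a subunit of the TGF-β family ligand activin, had 8.67 in NS and 7.67 in 5d, and PMEPA1, a target of TGF-β signals, had 8.31 in NS and 6.86 in 5d, a difference of -1.45. The listed clusters of the wider pathway thus lie in both directions. The ligands TGFB1, TGFB2 and TGFB3 and the ID genes, targets of BMP signals, have no cluster there.

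Each gene was also compared with its neighbours on the chromosome, in the gene order of RefSeq (GRCh38.p14). None of the 10 nearest protein-coding genes, 5 on each side, has a cluster in the authors' deposited table for SNAI1, PRRX1, S100A4, LEF1 or HES1. This is 0 of 50 neighbours, where 1.15% of all protein-coding genes are listed, so nothing particular to the 5 genes can be read from it. For S100A4 all 10 of these neighbours are S100 genes, among them S100A6, S100A3 and S100A2. The neighbours of LEF1 include DKK2, of a family of secreted Wnt regulators, and those of SNAI1 include the gene of the transcription factor CEBPB.

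As measures of likeness, the named clusters closest to each gene in the plane of both averages were taken, by distance in log2 units over the 2 groups. Nearest to SNAI1 was GAGE2B, a cancer-testis antigen, at a distance of 0.05 (8.69 in NS and 7.54 in 5d), followed by TMEM2 at 0.10 and FAM84B at 0.14. For LEF1 these were PKIA, an inhibitor of protein kinase A, at 0.01, the complement component C3 at 0.09 and LINC00473 at 0.09. S100A4 was closest to LINC01363 at 0.06, the adhesion molecule CADM1 at 0.10 and an ERV9-1 cluster at 0.11. HES1 lay 0.09 from LINC01059, 0.16 from RNF144A-AS1 and 0.25 from RNU1-122P. PRRX1 had the most distant neighbours, with the sulfate transporter SLC26A2 at 0.19, another ERV9-1 cluster at 0.24 and GAGE2D at 0.31. With 2 averages per gene, such likeness can arise between many clusters, and GAGE genes share sequence, so their signals may not be separate.

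To see how common differences of this size were on the arrays, each gene was set beside the exon probe sets whose shNS mean lay within 0.25 log2 units of its NS average. For SNAI1 there were 21246 such probe sets, of which 302 (1.42%) had a difference of -1.14 or lower between shPLK1 and shNS. In the other direction 0.329% were as far above 0. The match used the shNS mean alone, which does not treat both directions alike. The lower and higher shares, here and for the other genes, are therefore no measure of a lean to lower values. For PRRX1, 145 of 20260 probe sets (0.716%) were as low, and 0.0888% as high. With probe sets matched on the mean of both groups instead, the share for PRRX1 was 0.427%.

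The share was 0.788% for S100A4 (275 of 34902), 1.40% for LEF1 (499 of 35581) and 1.18% for HES1 (468 of 39538). As far above 0 were 0.252% for S100A4, 0.646% for LEF1 and 0.787% for HES1. Among probe sets with IDs of the gene's own chromosome, the share for LEF1 was 2.50%, or 30 of 1198. From the 5th to the 95th percentile these probe sets ran from -0.50 to 0.40 at the level of SNAI1, and since no listed cluster differs by less than 2-fold, any listed gene lies outside this range. The 1st percentile was -1.39 at the levels of SNAI1 and PRRX1, -1.33 for S100A4, -1.35 for LEF1 and -1.21 for HES1. The median SD within groups of single probe sets was 0.16 at the levels of SNAI1 and PRRX1, 0.19 at those of S100A4 and LEF1 and 0.21 at that of HES1. The differences of the genes were 5.27 (HES1) to 10.5 (PRRX1) times these SDs. The 2-fold limit on listed clusters keeps this ratio high for any gene chosen from them. Single probe sets and averages over a cluster need not vary alike, so these SDs are no errors of the genes, and the shares are no p-values.

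**Figure D3:**
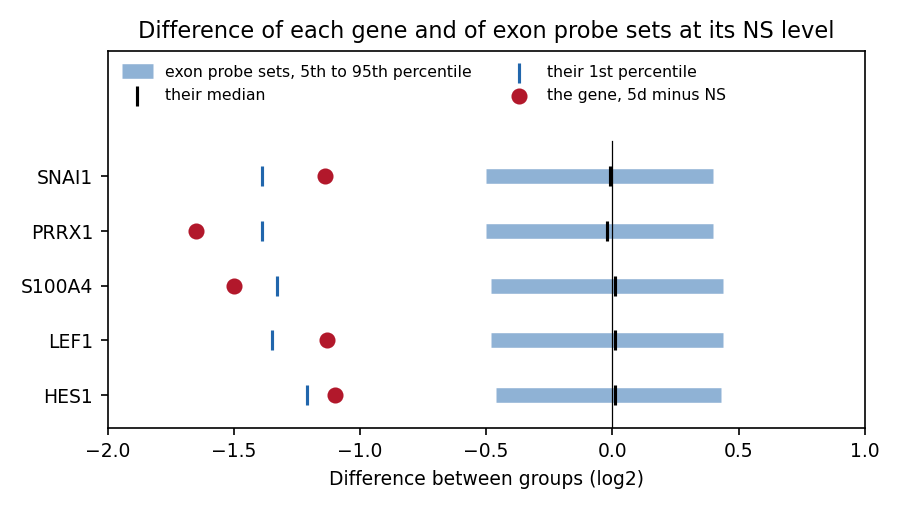
For each gene, the difference of the authors' averages (5d minus NS, red) beside the differences (shPLK1 minus shNS, log2) of exon probe sets at its NS level, with bars from their 5th to 95th percentile and ticks at the median and the 1st percentile. The red points lie left of the bars because the table holds no difference smaller than 2-fold, and those of PRRX1 (-1.65) and S100A4 (-1.50) are the farthest left.

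The array data allow a test that did not use the genes, namely whether the chromosomes that carry them moved as a whole between shPLK1 and shNS. For each array and chromosome the median deviation was taken over exon probe sets whose mean reached 7, relative to all chromosomes. Chromosome 20, which carries SNAI1, had shifts of 0.027, 0.036, 0.031 and 0.019 in the shPLK1 arrays and of -0.034, -0.025, -0.016 and -0.034 in the shNS arrays. The groups did not overlap, and the difference was 0.056 with a standard error of 0.0057 (limma, adjusted p = 1.3e-05 over 23 chromosomes).

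Chromosome 3, with HES1, had shifts of 0.034, 0.015, 0.030 and 0.012 in shPLK1 and of -0.018, -0.027, -0.025 and -0.018 in shNS. Its difference was 0.045 with a standard error of 0.0060 (limma, adjusted p = 0.0001). Chromosome 4, with LEF1, was lower in all shPLK1 arrays (-0.013, -0.020, -0.0087 and -0.0073) than in the shNS arrays (0.014, 0.0065, 0.00068 and 0.026). The difference was -0.024 with a standard error of 0.0061 (limma, adjusted p = 0.0061), and with probe sets of all levels -0.020, which did not pass the threshold (limma, adjusted p = 0.089). Chromosome 1, with PRRX1 and S100A4, had shifts of -0.020, -0.046, -0.033 and -0.038 in shPLK1 and 0.023, 0.033, 0.036 and 0.039 in shNS, with a difference of -0.067 and a standard error of 0.0064 (limma, adjusted p = 9.3e-06). Such shifts were not particular to the chromosomes of these genes. Chromosomes 2, 8, 9, 12, 13, 15, 17, 18, 21 and X also passed the threshold. The differences of chromosomes 18 (0.377), 13 (-0.248) and 15 (0.090) were larger in size than those of chromosomes 1, 3, 4 and 20. On chromosomes 8, 9, 12, 13, 15, 17, 18, 21 and X the groups did not overlap either, so such separation was common. Of all chromosomes past the threshold, only chromosome 2 had groups that overlapped. A chromosome-wide median does not measure changes of single genes or short segments, whose part in the values of the 5 genes was not tested.

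**Figure D4:**
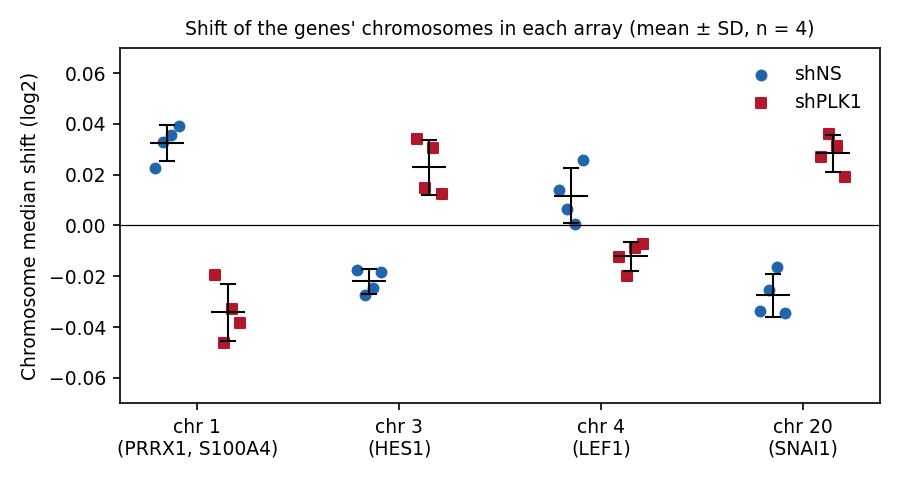
Median shift of the chromosomes that carry the 5 genes, in each array (log2, points) with the mean and SD of 4 arrays per group. The shPLK1 arrays lie below the shNS arrays for chromosomes 1 and 4 and above them for chromosomes 3 and 20, with all differences between -0.067 and 0.056.

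Calls of single exon probe sets were counted on the same chromosomes. Over all exon probe sets limma called 2.20% lower in shPLK1 and 1.99% higher at an adjusted p under 0.05. On chromosome 1 these shares were 2.97% and 1.32% and on chromosome 4 3.27% and 1.88%. On chromosome 3 they were 1.75% and 2.52%, and on chromosome 20 1.81% and 2.14%. Among the listed clusters, 33 of 46 with chromosome 1 IDs were lower in 5d, 16 of 22 on chromosome 4, 12 of 22 on chromosome 3 and 5 of 8 on chromosome 20, the 5 genes included. HES1 and TGFBR2, both on chromosome 3 and both in noncoding clusters, thus differed in opposite directions (-1.10 and 1.02).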

How the data were processed

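RNA of 8 A375 cultures was measured on Affymetrix Human Transcriptome Arrays. The authors used the Transcriptome Analysis Console with RMA (background correction, quantile normalization and summary of probes), a method that the submitters' notes name too, and the deposited log2 values cover 914585 rows (573909 exon and 339146 junction probe sets and 1530 controls), from 0.471 to 14.33. The authors' deposited table holds 491 clusters with bi-weight averages on the log2 scale, together with columns of the authors' own comparison (fold change, p and FDR), which were not used here. The genome build and annotation of the array are not given in the sources used here. Groups and replicate numbers were taken from the titles.

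Differences and folds of genes were computed from the averages, which have 2 decimals. With limma 3.58.1 (R 4.3.3, values read with the package data.table in version 1.17.8) a model of group alone was fitted to the unfiltered exon probe sets and to medians of 23 chromosomes, with Benjamini-Hochberg adjustment and a threshold of 0.05. It was tested on simulated data with 200 changed probe sets. The number of arrays, 4 per group, limits the precision. Across exon probe sets, not being independent replicates, Pearson's r was 0.986 to 0.991 within groups and 0.979 to 0.985 between them. Chromosomes were read from the IDs. Background controls (23) had means of 1.36 to 10.8 (median 2.98), and the lowest average of the genes was 5.27. This was HES1 in 5d, and 47.0% of exon probe sets had a lower shPLK1 mean. For S100A4 in 5d (5.54) it was 50.8%, so both lay near the middle of the exon probe sets.

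The genes, the 12 lists, the tests and the rule for named genes (the 5 genes, the 3 nearest named clusters of each, every listed gene with a cluster, and PLK1 and the blotted proteins) were chosen with earlier results of these data known. Older symbols were matched through RefSeq synonyms. Alternatives were junction probe sets, a limit on the level, the replicate number as a block, the study's thresholds, another window, another match and leaving out each array. Python 3.11.15 with pandas 2.3.3, numpy 2.4.6 and matplotlib 3.10.9 was used for the rest.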

Additional observations from a re-analysis of the deposited data

How the results depend on the processing

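Of 123 recomputed values for the exon probe sets, the chromosomes and the level-matched shares, 109 were scored as unchanged. For chromosome shifts this meant the same direction and side of the threshold. For the shares it meant a move smaller than the SD of the shares found with each of the 4 shPLK1 arrays alone. That SD does not include the spread between shNS arrays. Counts of exon probe sets were scored as unchanged within a set ratio of the main count, as was 9161 against 12624. Reversal could be scored for chromosome shifts only, and none of those reversed. At a fold above 2 and an unadjusted p under 0.05 limma called 6020 exon probe sets lower and 4691 higher, fewer than the 12624 and 11422 at an adjusted p, and with 1 array left out the counts were 9800 to 11198 and 8140 to 9614. The chromosome 4 shift was weaker over probe sets of all levels (-0.020). With probe sets matched on the mean of both groups the share was 1.02% for SNAI1, 0.427% for PRRX1 and 1.26% for LEF1. On the own chromosome it was 1.33% for SNAI1, 0.893% for PRRX1, 2.50% for LEF1 and 1.42% for HES1. With 1 array left out it was 1.34% to 1.44% for SNAI1, 0.783% to 0.856% for S100A4 and 1.34% to 1.52% for LEF1. The cause of these shifts was not tested. The replicate numbers did not pair the arrays, since deviations of same-numbered arrays had correlations of -0.145, 0.0415, -0.0649 and -0.103 and no shPLK1 array correlated best with its own number. With the replicate block 9161 exon probe sets were lower and 8077 higher, and the chromosome shifts stayed at -0.067, 0.045, -0.024 and 0.056 for chromosomes 1, 3, 4 and 20, all past the threshold. The group averages of the 5 genes could not be recomputed, as they are given as averages only.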
